A study of Mus musculus with 2 samples.

Results

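Cells with transcripts of Trdc or Ncr1 were rare among lymphocytes from EMT6 tumours, which grow from a mammary carcinoma line of mouse. Trdc encodes the constant part of the T cell receptor delta chain, and Ncr1 encodes NKp46, an activating receptor of natural killer (NK) cells. A cell was taken with at least 2 unique molecular identifiers (UMIs, each counted as 1 captured RNA molecule) of Trdc, or at least 1 of Ncr1, and with 0 of Cd4. This rule found 76 of 16770 kept cells, 38 in each library. The Trdc group (Ncr1 at 0) held 32 cells of the mSTAR1302 library and 25 of the vehicle library, and the Ncr1 group (at most 1 Trdc UMI) held 6 and 12 cells. A single vehicle cell met both conditions. The cells were thus chosen by their UMI counts of Trdc, Ncr1 and Cd4, so Trdc, Ncr1, Cd4, Cd3 and Cd8 levels in them are descriptions.

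Both libraries came from BALB/c mice of 4 to 6 weeks with subcutaneous EMT6 tumours, randomised at a tumour volume of 80 to 150 mm3. The mice of the mSTAR1302 library were injected with this agent intraperitoneally, once per week for 2 cycles, and those of the other library with vehicle. The agent is, per its makers, interleukin-2 fused to an antibody that binds some mouse beta chains of the T cell receptor. CD4+ and CD8+ cells were isolated from digested tumours with magnetic beads and kept in serum-containing medium, so cells with neither protein were not selected for. Each group is 1 library, the labels do not say how many mice it pools, and no test between groups could be made. The 95% intervals take in counting error alone.

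Gamma delta T cells carry a receptor of a gamma chain (Tcrg genes) and a delta chain in place of alpha and beta, and in tumours some of them release interleukin-17. NK cells lack the CD3 complex and a T cell receptor. Their receptors, NKp46 among them, signal through adaptor proteins such as those encoded by Fcer1g and Tyrobp, and they kill with granzymes and perforin. NKp46 is also found on other innate lymphoid cells, which release cytokines such as interleukin-22.

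On the mm10 assembly (GRCm38, GENCODE M21), Trdc (ENSMUSG00000104876) lies on the plus strand at chr14:54142851-54148868, 71653 bases before the alpha chain constant gene Trac at chr14:54220521-54224206. Rearrangement of the alpha chain locus removes Trdc from that chromosome copy. Ncr1 (ENSMUSG00000062524) lies at chr7:4337724-4345164 on the plus strand, Fcer1g at chr1:171229572-171234365 on the minus strand and Tyrobp at chr7:30413760-30417585 on the plus strand. The 250 bases before the RefSeq start of Ncr1 (chr7:4337474-4337723, plus strand) and of Fcer1g (chr1:171234350-171234599, minus strand; both GRCm38.p6) are shown because Ncr1 chose the cells and Fcer1g was found in all 7 Ncr1 cells with 0 or 1 Cd3 UMI, described below. Capitals mark TGTGGT or its reverse complement ACCACA, the core of the Runx motif, and GTGTGA or its reverse complement TCACAC, a half-site of T-box factors. The motifs did not overlap in these windows.
Ncr1: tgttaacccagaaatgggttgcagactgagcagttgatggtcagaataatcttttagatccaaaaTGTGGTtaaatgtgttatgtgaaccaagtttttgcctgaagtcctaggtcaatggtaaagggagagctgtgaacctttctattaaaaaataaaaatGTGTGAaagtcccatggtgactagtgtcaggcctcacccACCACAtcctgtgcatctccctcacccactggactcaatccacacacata
Fcer1g: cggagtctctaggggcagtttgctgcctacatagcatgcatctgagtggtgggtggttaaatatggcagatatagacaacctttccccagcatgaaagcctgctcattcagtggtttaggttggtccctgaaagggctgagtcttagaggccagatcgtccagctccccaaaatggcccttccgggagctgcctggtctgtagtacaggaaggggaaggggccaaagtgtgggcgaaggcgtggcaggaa
The Ncr1 window held 2 matches of TGTGGT (185 and 50 bases before the start) and 1 of GTGTGA (89 bases before it), and these letters were not in the Fcer1g window. Of 32851 windows of the same length, 14.05% held TGTGGT and 12.3% held GTGTGA on either strand. A match of letters is not a binding site.

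The kept cells had a median of 6260 UMIs in the mSTAR1302 library (9155 cells) and 8448 in the vehicle library (7615 cells). Median UMIs were 7341.5 and 11538 in the Trdc group, 5779.5 and 14218 in the Ncr1 group, and 6810.5 and 10434 in the CD8 T cells used for comparison. These were the 7100 and 3739 other cells with at least 2 UMIs of Cd3d, Cd3e and Cd3g together and at least 1 of Cd8a and Cd8b1. Unlike members, they could hold Cd4 UMIs, and 843 and 1302 of them did. The libraries shared 17 kept barcodes, no member barcode was a member in both, and 1 member barcode was a kept barcode of the other library. Markers of macrophages and monocytes (10 genes) summed to 21.4 CPM (a gene's UMIs summed over the cells of a group and scaled to that group's total) in the mSTAR1302 Trdc group and 76.6 in its CD8 T cells.

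The Trdc group made up 0.350% of kept cells in the mSTAR1302 library (95% interval 0.239 to 0.493%) and 0.328% in the vehicle library (0.213 to 0.484%), with intervals that overlap. The Ncr1 group made up 0.0655% (0.0241 to 0.143%) and 0.158% (0.0815 to 0.275%), and these intervals overlap too. With every cell thinned to 3000 UMIs before the rule was applied, the Trdc shares were 0.195% and 0.306% and the Ncr1 shares 0.0520% and 0.153%. Thinning left out 1463 and 1078 shallower cells.

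Trdc UMIs were not particular to these cells. Among CD4 T cells (at least 2 Cd3 UMIs, a Cd4 UMI and no Cd8), which should lack the gene and had median depths of 6111 and 7503 UMIs, at least 2 Trdc UMIs were found in 3 of 937 cells of the mSTAR1302 library (0.320%, 0.0661 to 0.933%) and 16 of 1987 vehicle cells (0.805%, 0.461 to 1.30%). The Trdc group shares, 0.328% in vehicle and 0.350% in mSTAR1302, are of all kept cells. Those include cells with Cd4 UMIs, which could not be members, so the group shares are not ranked against the CD4 shares. As CD4 T cells also held Trdc UMIs, neither group share is read as a count of gamma delta T cells. Macrophage-like cells (at least 3 UMIs of C1qa, C1qb, C1qc and Csf1r, with Lyz2 and no Cd3) had no Trdc UMI in 17 and 63 cells, which allows shares of up to 17.6% and 4.76%. Droplets with 20 to 100 UMIs, which hold mostly free RNA, had a Trdc UMI in 0 of 1607 and 1 of 3036 cases. Being so shallow, they cannot be compared with cells by share. Scaled to their UMIs, the vehicle droplets had 9.92 CPM of Trdc (0.251 to 55.3). Ncr1 UMIs were found in 0 of 937 CD4 T cells of the mSTAR1302 library, which allows up to 0.320%, and in 4 of 1987 vehicle CD4 T cells (0.201%). These shares too are not ranked against those of the Ncr1 group. The condition of no Cd4 UMI itself left out 6 and 31 cells with at least 2 Trdc UMIs, and 7 and 15 cells with an Ncr1 UMI.

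**Figure D1:**
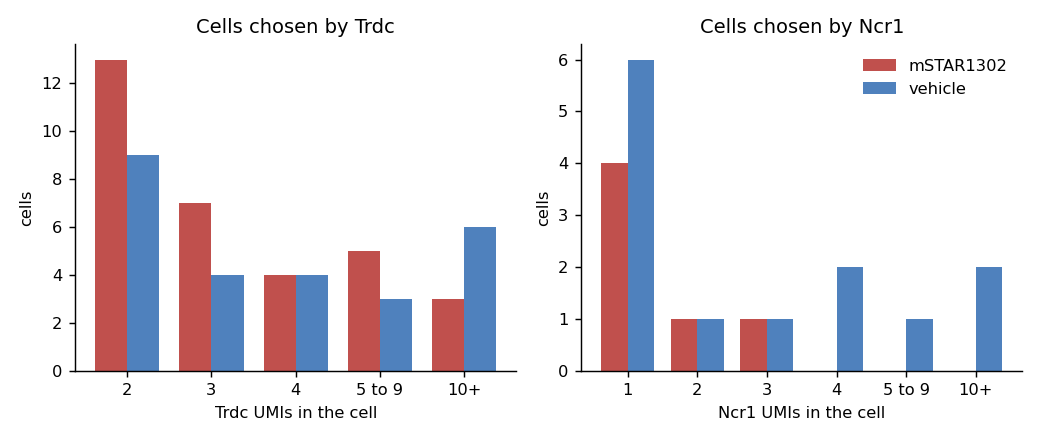
Number of cells (y axis) by UMIs of the gene that chose them (x axis), with Trdc on the left and Ncr1 on the right, mSTAR1302 in red and vehicle in blue; the cell that met both conditions is in both panels. Most cells sit at or near the lower limit, with 13 and 9 Trdc group cells at exactly 2 UMIs, and the high counts are few.

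Most members were close to the limits of the rule. In the Trdc group the Trdc count had a median of 3 UMIs in both libraries and a highest value of 24 in mSTAR1302 and 41 in vehicle. At exactly 2 Trdc UMIs lay 13 and 9 cells, and just outside the limit, at 1 UMI without Cd4, lay 26 and 19 cells. Ncr1 counts ran from 1 to 3 in the mSTAR1302 cells and from 1 to 17 in the vehicle cells, with medians of 1 and 1.5.

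The Trdc group looked like CD3+ T cells of the alpha beta kind, against the label of gamma delta T cells. At least 2 Cd3 UMIs were present in 32 of 32 mSTAR1302 cells and in 24 of 25 vehicle cells. The summed Cd3d, Cd3e and Cd3g count ran from 4 to 121 with a median of 18.5 in mSTAR1302, and from 1 to 81 with a median of 40 in vehicle. Cd8a or Cd8b1, which encode the chains of the CD8 coreceptor, had UMIs in 29 of 32 mSTAR1302 cells (90.6%, 75.0 to 98.0%) and in 17 of 25 vehicle cells (68.0%, 46.5 to 85.1%). Trac or Trbc, the constant genes of the alpha and beta chains, had UMIs in every cell of the group, 32 of 32 and 25 of 25, and both were seen in 30 and 22 cells. In CD8 T cells both were seen in 90.6% of mSTAR1302 cells and 93.7% of vehicle cells.

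Gamma chain transcripts were scarce in the Trdc group. A UMI of Tcrg-C1, Tcrg-C2 or Tcrg-C4, the gamma constant genes, was found in 2 of 32 mSTAR1302 cells (6.25%, 0.766 to 20.8%) and 2 of 25 vehicle cells (8%, 0.984 to 26.0%). CD8 T cells had one in 2.79% and 4.47%, values within those intervals. Delta variable (Trdv) segments had UMIs in 4 of 32 mSTAR1302 cells and 3 of 25 vehicle cells, against 0.620% and 0.963% of CD8 T cells. Those UMIs were 1 or 2 in a cell except in 1 vehicle cell with 14. Of the gamma delta marker list (17 genes measured), 9 were at 0 in the whole mSTAR1302 group. The 5 beta variable (Trbv) UMIs of the vehicle group and the 7 of the mSTAR1302 group each held 1 of Trbv13-2 or Trbv13-3, the segments mSTAR1302 is said to bind, too few to compare.

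**Figure D2:**
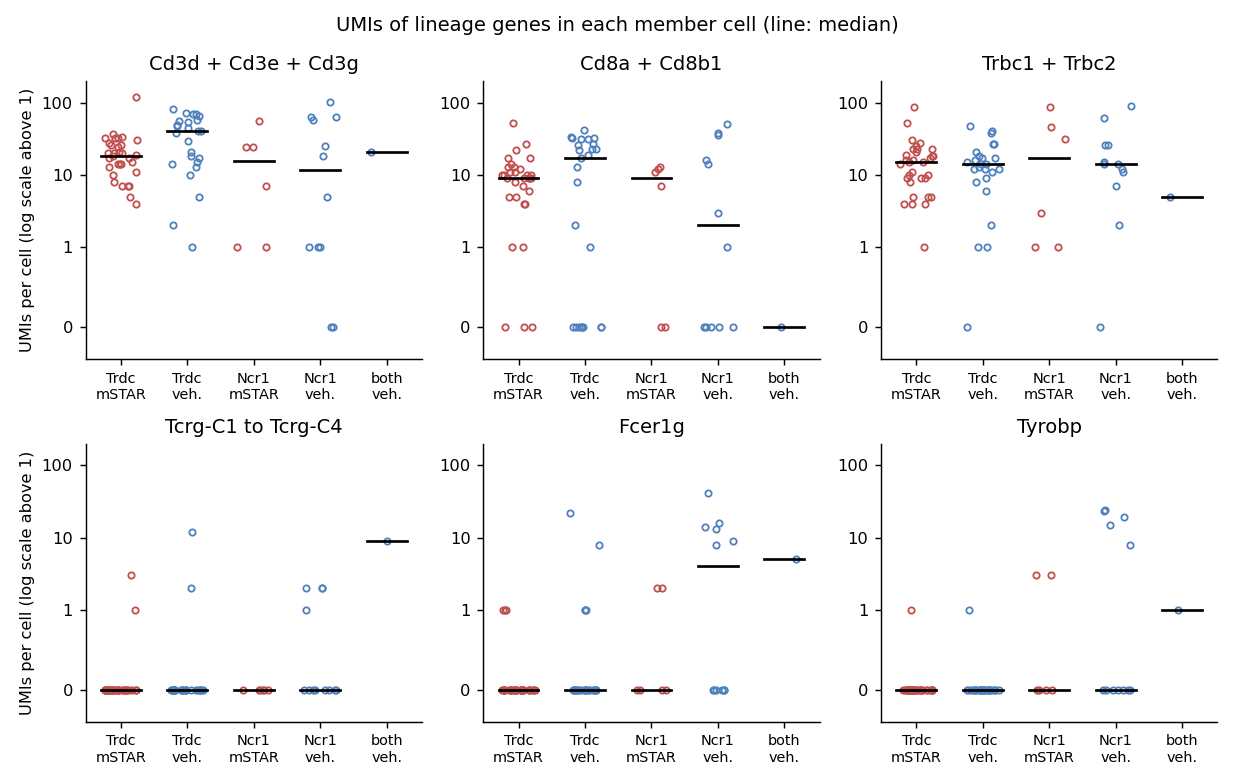
UMIs per cell (y axis, logarithmic above 1) of 6 gene sums in each member cell, by group and library (x axis); each circle is a cell, red for mSTAR1302 and blue for vehicle, and black lines are medians. CD3 and Trbc sit high in the Trdc group while Tcrg-C sits at 0 in all but 4 of its cells, and Fcer1g and Tyrobp appear mainly in the Ncr1 group.

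The gamma delta pattern that the label names was seen in single cells. A vehicle cell of 9600 UMIs had 13 Trdc, 14 Trdv4, 12 Tcrg-C and 5 Tcrg-V UMIs, 49 Cd3 and 0 Cd8. The same cell had 11 UMIs of Il17a, which encodes interleukin-17A, 19 of Cd163l1, a scavenger receptor known from gamma delta T cells that make it, and 6 of Il1r1. It also held 2 Trac and 9 Trbc UMIs. Il17a and Cd163l1 were at 0 UMIs in the mSTAR1302 Trdc group, which allows a share of cells with a UMI of up to 9.38%.

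The cell that met both conditions had 8193 UMIs, with 15 of Trdc, 4 of Ncr1, 9 of Tcrg-C, 21 of Cd3, 5 of Fcer1g and 0 of Cd8. In this cell Trac had 1 UMI and Trbc 5. A vehicle cell with 21 Trdc UMIs had 2 Tcrg-C and 4 Tcrg-V UMIs beside 31 of Cd8, 14 of Trac and 21 of Trbc. It also had 249 UMIs of Gzmf, 44 of Gzmc, 22 of Fcer1g and 19 of Klra5, which encodes a receptor of the Ly49 family. These were not particular to it: another vehicle Trdc cell, with 4 Trdc and 0 Tcrg-C UMIs, had 651, 39, 8 and 7 of them. The cell with most Trdc, 41 UMIs of 6594, had no Tcrg-C or Cd8 UMI and 17 of Cd3, with 3 of Foxp3 and 52 of Gzmb. In mSTAR1302 the highest Trdc counts, 24 and 19, lay in cells with 17 and 12 Cd8 UMIs and no Tcrg-C.

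The vehicle Trdc cells without Cd8 included cells with Foxp3, the lineage factor of regulatory T cells. A Foxp3 UMI was present in 8 of 25 vehicle Trdc cells (32.0%, 14.9 to 53.5%) and in 1 of 32 mSTAR1302 Trdc cells (3.12%, 0.0791 to 16.2%). CD8 T cells, which were not filtered on Cd4 as members were, had one in 33.5% of vehicle and 5.07% of mSTAR1302 cells. The 5 vehicle cells with Foxp3 and no Cd8 UMI, a subset chosen after the values were seen, had 2797 CPM of Tnfrsf4, which encodes the costimulatory receptor OX40, against 355 in CD8 T cells (7.87-fold, 6.53 to 9.41). Of these Tnfrsf4 UMIs 99 lay in 1 cell of 21529 UMIs, and the other 4 cells had 1, 5, 6 and 10. Il2ra, the interleukin-2 receptor alpha chain, was 3.20-fold higher there (2.39 to 4.18), with 3, 3, 5, 12 and 30 UMIs. Gzmb was 4.94-fold higher (4.07 to 5.93), with 52 and 58 UMIs in 2 cells and 0, 1 and 3 in the others, while Klrd1, an NK-type receptor common on CD8 T cells, had 0 UMIs.

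2 vehicle Trdc cells stood apart. They had 114899 and 86050 UMIs, with Cd3 counts of 1 and 2 and no Cd8, and held 41.8% of the vehicle group's UMIs. Their leading genes against CD8 T cells were F3, Inhba, Bdnf, Cryab, Klf5 and Has2, and Mt2, a metallothionein, reached 456 UMIs in them. Each held 1 Trbc and no Trac UMI. With both cells, fibroblast markers summed to 431 CPM in the vehicle Trdc group and markers of epithelium and EMT6 to 237 CPM; without them both sums were 7.16 CPM. Profiles of the vehicle Trdc group below leave both out unless stated, a choice made after seeing the data.

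Against CD8 T cells of its own library the Trdc group had few differences. In mSTAR1302, 24 of 2780 genes at 50 CPM or more in either group (0.863%) were higher by 2-fold or more, and 42 (1.51%) were lower by as much. In vehicle, 50 of 3200 genes (1.56%) were higher and 102 (3.19%) lower; with both large cells, 196 of 3178 (6.17%) and 215 (6.77%). No gene of 2593 was higher in both libraries (0%), and 4 (0.154%) were lower in both. With the large cells kept, 2 of 2567 were higher (0.0779%) and 7 lower (0.273%). Leaving the cells over 50000 UMIs out of the CD8 T cells as well reduced the 4 to 1.

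The 4 genes lower in both libraries were Phgdh (log2 ratios of -1.14 in mSTAR1302 and -1.10 in vehicle), an enzyme of serine synthesis, Rock2 (-1.09 and -1.53), a kinase of the cytoskeleton, Fabp5 (-1.07 and -1.07), a fatty acid carrier, and Cst3 (-1.04 and -1.01), a protease inhibitor. Phgdh and Rock2 rest on 7 or 8 UMIs in each library. With the large cells kept, the 2 higher genes were Egr1, an early response factor, at 243 CPM against 83.0 in mSTAR1302, and Slc48a1, a haem transporter, at 50.03 CPM against 23.97. A single cell held 52.9% of the Egr1 UMIs in mSTAR1302 and 55.8% in vehicle. The 7 lower genes were then Tnfsf8, Cd200, Il1r2, Ubxn2a, Ikzf2, Fabp5 and Lmnb1, with log2 ratios from -1.02 to -3.80.

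Of 13 T cell signalling and identity genes at 50 CPM or more in mSTAR1302 none passed 2-fold, where 0.863% of all genes tested were higher and 1.51% lower, with a median log2 ratio of -0.00 beside -0.01 over all genes tested. In vehicle none of 12 passed, beside 1.56% higher and 3.19% lower over all genes, with a median of -0.15 beside 0.01. With the large cells kept, 4 of the 12 were lower in vehicle, beside 6.77% of all genes. Trac stood at 661 CPM against 677 in mSTAR1302 and 809 against 736 in vehicle. Trbc1 was lower in vehicle, 283 against 866 CPM (log2 ratio -1.61), while Trbc2 was 1134 against 980. These constant genes are near copies, so reads between them are uncertain.

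Of killer lectin-like receptor genes, which NK and CD8 T cells share, 0 of 4 at the floor passed 2-fold in mSTAR1302 (median log2 ratio 0.20 beside -0.01 over all genes). In vehicle 1 of 7 was higher and 0 lower (0.44 beside 0.01), the higher one being Klra5 at 93.04 against 4.70 CPM, its 26 UMIs in 2 cells. Klrd1, the CD94 chain, had 479 CPM against 536 in CD8 T cells of mSTAR1302, and 880 against 648 in vehicle. Klrk1, which encodes NKG2D, had 454 against 339 and 333 against 296. Of the NK adaptors, Hcst, the partner of NKG2D, was at 697 against 646 and 404 against 423. Tyrobp was at 3.58 CPM against 194 in vehicle, on 1 UMI in 1 cell, and Fcer1g was at 115 against 93.9. Those levels in CD8 T cells come with macrophage markers: that list summed to 791 CPM in vehicle CD8 T cells and 57.3 in the Trdc group, and its part in the Tyrobp value was not tested.

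Effector genes departed further, several of them on 1 or 2 cells. In mSTAR1302, Ifng, the interferon gamma gene, reached 4978 CPM against 1492 and Ccl3, a chemokine gene, 4564 against 1059. A single cell held 61.9% of the Ifng UMIs, and a single cell held 75.7% of the Ccl3 UMIs. Without the top cell of each gene the log2 ratios fell from 1.74 to 0.45 for Ifng and from 2.11 to 0.17 for Ccl3. Ifng UMIs were nevertheless found in 27 of 32 cells (84.4%, 67.2 to 94.7%), against 74.8% of CD8 T cells.

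Gzmb, granzyme B, was at 1573 CPM in the mSTAR1302 Trdc group against 1343 in CD8 T cells, and at 870 against 534 in vehicle. In mSTAR1302 the Trdc group had no Gzmf or Gzmd UMI, against 218 and 174 CPM in CD8 T cells, at least 20.4-fold and 16.2-fold lower when 3 UMIs over the group are taken as the floor. That floor covers counting error alone, not the spread between cells. Vehicle Trdc cells had 903 Gzmf UMIs, or 3231 CPM against 248. Of these 99.7% lay in 2 cells. Gzmc UMIs were present in 1 of 32 and 2 of 25 cells. The Gzmd to Gzmf genes are close relatives, so reads may be divided between them with error. Of 14 cytotoxic granule genes in mSTAR1302, 4 were at least 2-fold lower and 0 higher, beside 1.51% and 0.863% of all genes (median -0.14 beside -0.01). Of 13 in vehicle, 2 were higher and 1 lower, beside 1.56% and 3.19% of all genes (median 0.23 beside 0.01).

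**Figure D3:**
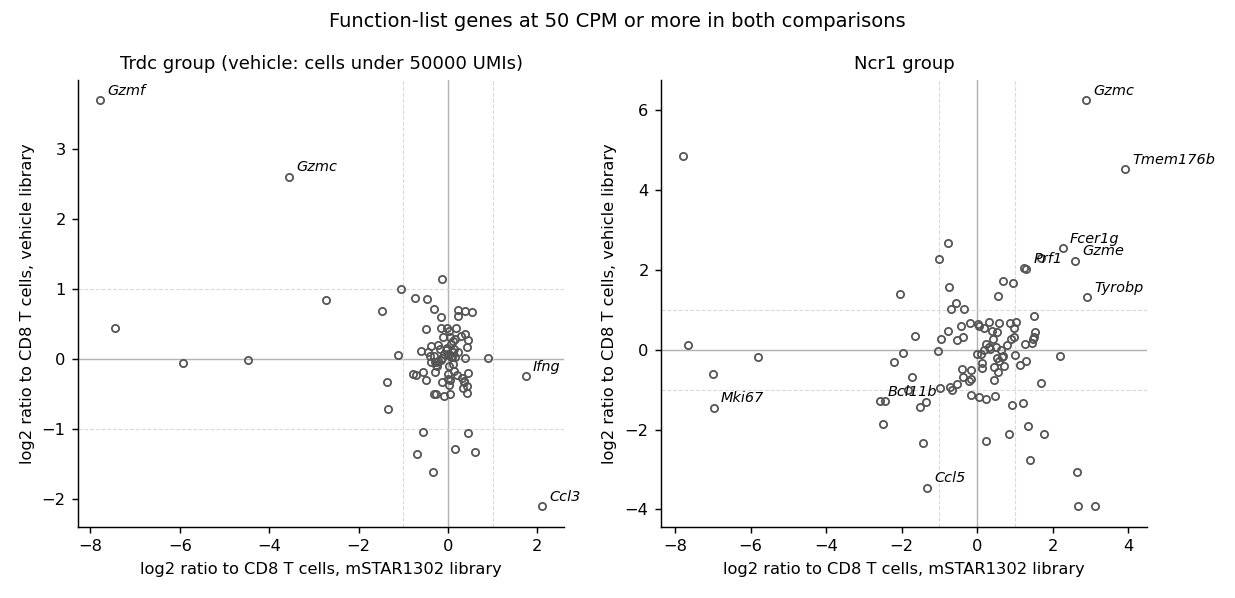
Log2 ratios of member cells to CD8 T cells in mSTAR1302 (x axis) and vehicle (y axis) for function-list genes at 50 CPM or more in both comparisons, Trdc group on the left and Ncr1 group on the right; dashed lines mark 2-fold. The Trdc group clusters around 0 apart from granzyme, Ifng and Ccl3 points, and Fcer1g, Tyrobp, Gzmc and Tmem176b lie at the upper right for the Ncr1 group.

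Between the libraries, several of the genes that differed in the Trdc group also differed in CD8 T cells. Of 3181 genes, 173 (5.44%) were at least 2-fold higher in mSTAR1302 and 434 (13.6%) lower (with the large cells, 332 and 478 of 3116, or 10.7% and 15.3%), against 35 (1.19%) and 126 (4.27%) of 2952 in CD8 T cells. The Trdc sums rest on 32 and 23 cells and the CD8 sums on 7100 and 3739. The larger Trdc shares are therefore not read as a larger difference between libraries. Gzma, granzyme A, had 216 UMIs in 14 of 32 mSTAR1302 cells (772 CPM) and 0 in the 23 vehicle cells. By counting error alone that is at least 71.9-fold higher. In CD8 T cells Gzma stood at 1068 and 47.8 CPM, with UMIs in only 257 of 3739 vehicle cells, so 0 UMIs in 23 cells bound its level weakly. Ly6c1 and Ly6c2, surface proteins of activated and memory CD8 T cells, were at 511 and 600 CPM in mSTAR1302 and 7.16 and 17.9 in vehicle. CD8 T cells had 431 and 487 CPM of them in mSTAR1302 and 99.8 and 137 in vehicle.

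Others higher in the mSTAR1302 Trdc cells were Ccl3 (4564 against 125 CPM), Gzmk (78.6 against 3.58) and, with 0 UMIs in vehicle, Ifi208, Il3 and Ifit1 at 60.8, 53.6 and 53.6 CPM. Lower, with 0 UMIs in mSTAR1302, were Gzmf and Gzmd, Areg (272 CPM in vehicle), a growth factor of tissue repair, Penk (143), the enkephalin precursor, Myo10 (115), Ccn4 (115), Klra5 (93.04) and Bdh2 (78.7). Of the Penk UMIs 97.5% lay in 2 vehicle cells, both with Foxp3. Areg, Penk, Myo10, Ccn4 and Bdh2 were also lower in mSTAR1302 CD8 T cells, with log2 ratios from -1.41 to -2.94. Gzmf, Gzmd and Klra5 differed little there (-0.18, -0.25 and -0.27). Whether the Trdc group and CD8 T cells differ in these ratios was not tested. With the large cells kept, Csf2 joined the higher genes and Cd63, Cald1, Gja1, Ptgs2, Fn1, Lgals7 and Sparc the lower ones, all 7 at 0 UMIs in mSTAR1302.

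As lists, 9 of 12 inhibitory receptor and exhaustion genes were at least 2-fold lower in the mSTAR1302 Trdc cells and 1 was higher, where 13.6% of all genes tested were lower and 5.44% higher, with a median log2 ratio of -2.14 beside -0.19 over all genes. Of 9 interferon response genes 5 were higher and 0 lower, beside the same 5.44% and 13.6%, with a median of 1.83. In CD8 T cells the medians of these lists were -0.998 and 0.16 beside -0.17 over all genes. Of 9 genes of the interleukin 2 receptor and its response, 1 was higher and 1 lower, with a median of -0.21. These values describe 32 and 23 cells.

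**Figure D4:**
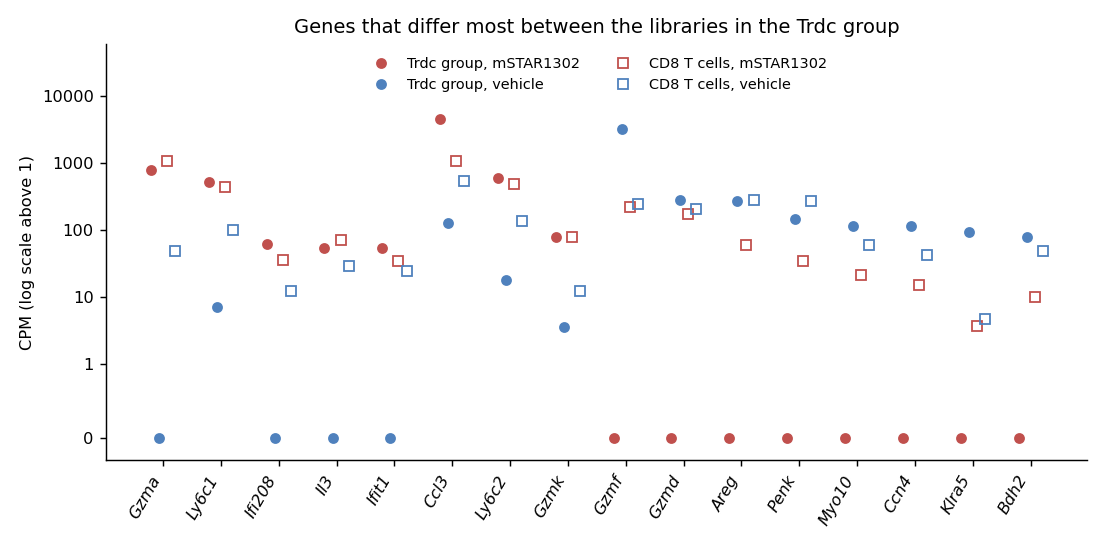
CPM (y axis, logarithmic above 1) of the 16 genes that differ most between the libraries in the Trdc group (x axis); filled circles are the Trdc group, vehicle cells over 50000 UMIs left out, open squares are CD8 T cells, red for mSTAR1302 and blue for vehicle. Gzma, Ly6c1 and Ly6c2 are high in both kinds of mSTAR1302 cell, while Gzmf reaches 3231 CPM in vehicle Trdc cells and stays close between the CD8 T cells.

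The Ncr1 group was a mixture. At least 2 Cd3 UMIs were present in 4 of 6 mSTAR1302 cells (66.7%, 22.3 to 95.7%) and in 7 of 12 vehicle cells (58.3%, 27.7 to 84.8%). The Cd3 counts of the mSTAR1302 cells were 1, 1, 7, 24, 24 and 55, and those of vehicle ran from 0 to 104 with a median of 11.5. The values split, with no cell at 2 to 4 UMIs. Cd8 UMIs were found in 4 of 6 and 7 of 12 cells, and Trac in 4 and 7. Of the 4 mSTAR1302 cells with CD3, all 4 had Cd8; of the 7 vehicle cells, 6 had it.

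The cells with 0 or 1 Cd3 UMI, 2 in mSTAR1302 and 5 in vehicle, carried the adaptors of NK receptors. All 7 had Fcer1g, with 2 and 2 UMIs in mSTAR1302 and 8, 9, 13, 14 and 16 in vehicle. Tyrobp was found in both mSTAR1302 cells, with 3 UMIs each, and in 4 of the 5 vehicle cells, with 8, 19, 23 and 24. Trac was at 0 in all 7, but Trbc had 1 UMI in each mSTAR1302 cell and 7 to 15 in the same 4 vehicle cells. Klrd1 had UMIs in both mSTAR1302 cells and 4 of the 5 vehicle cells, while Klrb1c, which encodes NK1.1, had 1 UMI in 1 of the 7. Eomes, a factor of mature NK cells, had 2 UMIs in 1 cell, and Tbx21, its relative T-bet, had UMIs in 1 and 3 cells.

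Against CD8 T cells of vehicle, these 5 cells had 830 CPM of Fcer1g against 93.9 (8.84-fold, 6.73 to 11.4) and 1023 of Tyrobp against 194 (5.27-fold, 4.13 to 6.62). In the 2 mSTAR1302 cells Fcer1g was 30.7-fold higher (8.35 to 78.8) and Tyrobp 48.5-fold (17.8 to 106), on 4 and 6 UMIs. Macrophages also carry both adaptors. In the whole Ncr1 group 10 of 10 macrophage markers were at 0 in mSTAR1302. In vehicle 6 of 10 were at 0 and the list summed to 43.4 CPM against 791 in CD8 T cells.

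Other genes leading the 5 vehicle cells, each in at least 4 of them, were Clnk (166 CPM against 0.224), an adaptor of immune receptor signalling, Car2 (304 against 4.23), carbonic anhydrase 2, Tmem176b (608 against 10.4) and Tmem176a (429 against 9.69), and Klrb1b (124 against 1.53), a lectin-like receptor gene. Txk, a kinase of the Tec family, was at 636 against 78.9 CPM and at 1065 against 119 in the 2 mSTAR1302 cells. Tmem176b was also higher in those 2 cells, at 666 against 6.27 CPM. Gzmc, granzyme C, had 12 and 6 UMIs in the mSTAR1302 pair and 104, 140 and 259 in 3 of the 5 vehicle cells, 145-fold over CD8 T cells (132 to 160). Ifng was lower, at 166 against 741 CPM in vehicle (0.224-fold, 0.116 to 0.391), and at 0 UMIs in the mSTAR1302 pair.

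**Figure D5:**
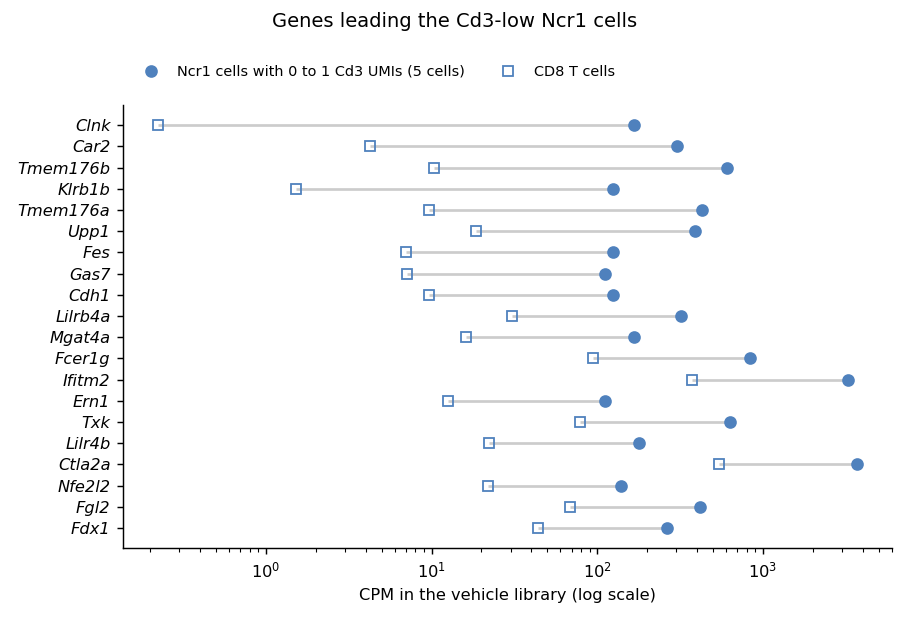
CPM (x axis, logarithmic) of the 20 genes with the largest ratios in the 5 vehicle Ncr1 cells with 0 or 1 Cd3 UMI (filled circles) against vehicle CD8 T cells (open squares); genes had at least 100 CPM and UMIs in at least 4 of the cells. Clnk shows the widest gap, and Fcer1g stands at 830 against 93.9 CPM.

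1 of the 5 cells differed from the other 4. With 10120 UMIs it had 13 of Fcer1g, 17 of Il22, which encodes interleukin-22, 21 of Tmem176b, 12 of Il7r, 11 of Tnfsf11 (RANKL), 51 of Cd74 and 27 of H2-Aa, and 0 of Tyrobp, Klrd1, Klrk1, Trbc and Gzmc. Its Ncr1 count was 1. The other 4 had 3, 4, 9 and 14 Ncr1 UMIs. A vehicle cell with the highest count, 17 Ncr1 UMIs in 18805, had 18 of Cd3, 0 of Cd8, 6 of Trac, 26 of Trbc, 15 of Tyrobp, 4 of Klrb1c and 0 of Fcer1g.

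The Ncr1 cells with CD3 were also set against CD8 T cells. Prf1, perforin, was at 467 against 158 CPM in the 4 mSTAR1302 cells (2.96-fold, 1.75 to 4.68) and 999 against 160 in the 7 vehicle cells (6.26-fold, 5.15 to 7.54). Prf1 UMIs lay in 3 of 4 and 6 of 7 of them, with 12 of the 18 mSTAR1302 UMIs in 1 cell. Gzmb was at 389 against 1343 CPM in mSTAR1302 and 2150 against 534 in vehicle. Ifng was at 1038 against 1492 CPM in the mSTAR1302 cells. In the vehicle cells it was at 7656 against 741 CPM, but 1 cell held 89.0% of the Ifng UMIs of the whole vehicle Ncr1 group. Gzmf had 1327 UMIs in 2 vehicle cells, 1326 of them in 1, which also held 42 of Fcer1g, 184 of Gzmc and 240 of Xcl1. Fcer1g and Tyrobp were at 0 in all 4 mSTAR1302 cells with CD3, and each was found in 1 of the 7 vehicle cells.

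As a whole the Ncr1 group was set against CD8 T cells in the same way. In mSTAR1302, 700 of 3218 genes (21.8%) were higher by 2-fold or more and 390 (12.1%) lower, and in vehicle 137 of 3196 (4.29%) and 265 (8.29%). In both libraries 29 of 2715 were higher (1.07%) and 40 lower (1.47%); in 17 and 12 of these the counting intervals lay beyond 1 in both. The 46040 UMIs of the 6 mSTAR1302 cells put 50 CPM at about 2 UMIs, and 1 cell held 45.8% of them.

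Higher in both were Tmem176b (log2 ratios of 3.91 in mSTAR1302 and 4.52 in vehicle), Gzmc (2.87 and 6.25), Fcer1g (2.26 and 2.55), Tyrobp (2.91 and 1.31), Gzme (2.59 and 2.23), Gzmd (1.24 and 2.04), Prf1 (1.30 and 2.03), Txk (1.24 and 2.15) and Lgals3 (1.73 and 1.21), which encodes galectin-3. Spry2, Napsa and Myo1e were also higher, on 3 to 6 UMIs in mSTAR1302. Ttn, Nebl and Hspa1a each rested on 1 cell in a library: without it Ttn was at -1.80 in mSTAR1302, Nebl at -3.55, and Hspa1a at -5.52 in vehicle. Without its top cell Prf1 was at -0.07 in mSTAR1302, Txk at 0.72 there, and Gzmd at 0.69 in mSTAR1302 and 0.82 in vehicle. In vehicle Gzme was then at 0.91, Tyrobp at 0.95, Lgals3 at 0.82 and Spry2 at 0.73, so these too fell below 2-fold. Tmem176b, Gzmc and Fcer1g stayed past 2-fold in both libraries. So did Napsa (2.48 and 1.05) and Myo1e (1.75 and 1.00), each on 3 UMIs in mSTAR1302 and close to the limit in vehicle.

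The 40 genes lower in both included the following. Lat, a scaffold of T cell receptor signalling, had log2 ratios of -1.35 and -1.30, Bcl11b, a T lineage factor, -2.56 and -1.29, and Ctla4 -1.51 and -1.43. In mSTAR1302 these 3 rest on 5, 1 and 4 UMIs. Ccl5, a chemokine gene, had 891 CPM against 2252 in mSTAR1302 and 65.1 against 723 in vehicle. Igtp (-2.46 and -3.57), Isg15 (-2.50 and -1.85) and Bst2 (-2.44 and -1.29), genes that interferon is known to induce, were lower, each on 1 UMI in mSTAR1302. Hist1h2ap, a histone gene of dividing cells, had -3.77 and -2.97. Hist1h2ae, Hist1h1b, Mki67 and Isg20 had 0 UMIs in mSTAR1302; for Hist1h2ae that is at least 3.27-fold lower and for Mki67 at least 1.91-fold.

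Of the fixed lists, 2 of 3 NK adaptor genes were at least 2-fold higher in each library, with medians of 2.26 and 1.31 beside 0.26 and -0.08 over all genes tested, of which 21.8% and 4.29% were higher. Proliferation genes were lower for 7 of 10 in mSTAR1302, beside 12.1% of all genes, and for 3 of 11 in vehicle, beside 8.29%, with medians of -1.77 (-1.21 with genes at 0 set to their bound) and -0.40. Of 14 cytotoxic granule genes 4 were higher and 4 lower in mSTAR1302, beside 21.8% and 12.1% of all genes. In vehicle 7 of 13 were higher and 0 lower, beside 4.29% and 8.29%. Alpha beta receptor and CD3 genes outside the rule had medians of 0.32 and -0.71.

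Between libraries the Ncr1 group can hardly be compared, with 704 of 3376 genes (20.9%) at least 2-fold higher in mSTAR1302 and 594 (17.6%) lower. Gzma had 42 UMIs in 4 of the 6 mSTAR1302 cells, 36 of them in 1, and 0 in the 12 vehicle cells. By counting error alone that is at least 56.1-fold higher, but Gzma UMIs lay in only 257 of 3739 vehicle CD8 T cells. Spp1, osteopontin, had 347 UMIs in 4 vehicle cells and 0 in mSTAR1302, at least 28.9-fold lower. Ccl1 had 34 UMIs in 5 vehicle cells and 0 in mSTAR1302, at least 2.83-fold lower. Serpine2 was higher in mSTAR1302, at 738 against 5.42 CPM, all 34 UMIs in 1 cell. The other genes leading in mSTAR1302, Ifi202b, Oas3, Prss2, Actn1, Mef2c and Ifi214, had 3 or 4 UMIs there and 0 in vehicle. Among those at 0 in mSTAR1302, Spata7 had 66 UMIs in 2 vehicle cells, Il3 had 50 in 1, Stmn1, Rexo2 and Cdk4 had 47, 32 and 29, and Gzmf had 1329.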

How the data were processed

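The authors deposited UMI counts per gene and barcode, in unfiltered matrices of 1728776 (mSTAR1302) and 1910622 (vehicle) barcodes, 32285 genes, and 96486469 and 110026997 UMIs. Per the file headers they come from Cell Ranger 4, and per the submitters' processing notes from Cell Ranger 6.0.1 with mm10, FastQC, MultiQC 1.9 and Seurat; which version made them is uncertain. Per the labels' protocols these were 10x 3' libraries, with at least 50000 reads per cell.

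Barcodes with at least 1000 UMIs, 500 genes and at most 10% mitochondrial UMIs were kept. Doublets were not removed. UMIs were summed per group and library and divided by their total (CPM). Log2 ratios used a pseudocount of 1 CPM, genes at 50 CPM or more in either group, and a 2-fold limit; the 8 genes of the rule were left out. Intervals (95%) are exact Clopper-Pearson for shares, Poisson for CPM and conditional binomial for ratios; a count of 0 was bounded at 3 UMIs. PCR copies are collapsed by UMI, and intervals cover counting error only. The folds given as at least a value, for counts of 0, leave out the spread between cells in the same way. With 1 library per group no test was made. The ratio and interval steps were tested on simulated data. Identifiers matched GENCODE M21 for 32158 of 32285 genes.

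Members and lists were chosen with earlier results of these data known. Named genes are function-list members, the 15 with the largest smaller ratio per direction against CD8 T cells in both libraries, and the 8 largest per direction between libraries, with counting intervals beyond 1; genes of the rule, predicted genes and receptor variable segments were left out. The work used SciPy 1.17.1, pandas 2.3.3 and NumPy 2.4.6 under Python 3.11.15, with figures by matplotlib 3.10.9. 1 gene that met the criterion for a closer look is not reported here.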

Additional observations from a re-analysis of the deposited data

Results flagged for a closer look

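Several genes moved in opposite directions against CD8 T cells in the 2 libraries, by at least 2-fold each; the difference between the libraries was not tested, as each is 1 library. The values are log2 ratios, first in mSTAR1302 and then in vehicle, with all members included. In the Trdc group Gzmc was at -3.55 and 1.83, and its vehicle UMIs lay in 2 cells. Gzmf was at -7.78 and 2.92; it had 0 UMIs in mSTAR1302 (at least 20.4-fold lower than in CD8 T cells), and 2 cells held 99.7% of it in vehicle. Ifng was at 1.74 and -1.01, and without its top mSTAR1302 cell the first value was 0.45. Its vehicle value leans on the 2 cells over 50000 UMIs. They held 41.8% of that group's UMIs but only 2 and 0 of its 177 Ifng UMIs, so an opposite direction is not read from Ifng. Ccl3 was at 2.11 and -2.84, with 0.17 in mSTAR1302 without the top cell.

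In the Ncr1 group, Gzmf was at -7.78 (0 UMIs, at least 3.35-fold lower) and 4.86, with 99.8% of the vehicle UMIs in 1 cell. Gzmb, granzyme B, was at -2.04 and 1.40. In vehicle 1 cell held 45.8% of its UMIs, and without that cell the value was 0.62, below 2-fold. In mSTAR1302 it rests on 15 UMIs, 73.3% of them in 1 cell. Ccl4, a chemokine gene, was at -1.003 and 2.27, and at -1.97 in vehicle without the cell that held 95.1% of it. Cd5 was at 1.21 and -1.33, Maf at 1.39 and -2.76 and Ikzf2 at 1.34 and -1.91; the top mSTAR1302 cell held 88.9%, 90.0% and 90.9% of their UMIs. Ccr7 was at 1.76 and -2.11, with all 16 mSTAR1302 UMIs in 1 cell. Itgae was at 2.66 and -3.93, and Il1rl1 at 2.64 and -3.06, each on 5 mSTAR1302 UMIs.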

How the results depend on the processing

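No paired analysis was possible because each group is 1 library. Among the alternatives, 90 values stayed close to those given and 59 moved. The Trdc group's share was 0.634% (mSTAR1302) and 0.578% (vehicle) with a minimum of 1 Trdc UMI, 0.208% and 0.210% with 3, 0.195% and 0.306% after thinning, and 0.331% and 0.390% at 5% mitochondrial UMIs. The order of the libraries, 0.350% against 0.328%, was thus turned under 3 Trdc UMIs, thinning and 5% mitochondrial UMIs. Directions of single genes were not run under these alternatives. The Ncr1 share was 0.0218% and 0.0788% with 2 Ncr1 UMIs. CD3 was found in 100% of vehicle Trdc cells with 3 Trdc UMIs, without cells above 2 times the median, with a Cd3 minimum of 1, and without members over 50000 UMIs. It was found in 100% of mSTAR1302 Ncr1 cells at 5% mitochondrial UMIs, after thinning, or with a Cd3 minimum of 1, but in 50% with 2 Ncr1 UMIs. In vehicle Ncr1 cells the share of 58.3% became 30% after thinning, 33.3% with 2 Ncr1 UMIs and 83.3% with a Cd3 minimum of 1.

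Genes higher than in CD8 T cells in both libraries numbered 2 for the Trdc group. They were 1 with 1 Trdc UMI, 5% mitochondrial UMIs, a reference without Cd4, members with CD3, a pseudocount of 5, a floor of 100 CPM or the mean of per-cell CPM; 0 without cells above 2 times the median; 37 in members without Cd8; and 84 with no floor. The 7 lower genes became 1 with 1 Trdc UMI, 12 with 3, 13 at 5% mitochondrial UMIs, 3 with a reference without Cd4, 321 without Cd8, 4 with CD3, a pseudocount of 5 or median-ratio scaling, 0 at a floor of 100 CPM, 763 with no floor and 2 with the per-cell mean. Leaving out members over 50000 UMIs, chosen after seeing the data, gave 0 higher and 4 lower, and leaving out such reference cells too gave 0 and 1. The members without Cd8 were only 3 cells in mSTAR1302, with a median of 2591 UMIs. There 1 UMI lies above the 50 CPM floor, so the 37 and 321 are not read as differences.

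For the Ncr1 group, 29 higher and 40 lower genes became 48 and 72 with 2 Ncr1 UMIs, 19 and 62 at 5% mitochondrial UMIs, 91 and 81 without cells above 2 times the median, 153 and 242 without Cd8, 135 and 300 with 0 or 1 Cd3 UMI, 13 and 14 at a floor of 100 CPM, 151 and 2255 with no floor, and 68 and 64 with the per-cell mean. Between libraries, 810 Trdc and 1298 Ncr1 genes became 370 and 592 at 100 CPM and 5899 and 5965 with no floor. The cause was not tested, beyond the fewer or more genes each floor lets in. Of the full groups, the 6 mSTAR1302 Ncr1 cells limit depth most. The subset with 0 or 1 Cd3 UMI, like that without Cd8, holds only 2 of them, with a median of 3756.5 UMIs. There 1 UMI lies above the 50 CPM floor, so the counts for these subsets are not read as differences.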
